A study of Homo sapiens with 7 samples.

Results

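Forkhead genes encode transcription factors that share a winged-helix DNA-binding domain, and they were described in human embryonic stem cells after transfection with the guide RNA plasmids labelled DJL1. The members were chosen by name alone, as the rows of the raw count table whose symbol is FOX, a letter of A to S, a number and at most 1 further letter. The rule found 47 genes among 59251 rows, and 44 of them were among the 26062 genes that passed the filter on low counts. FOXI1, FOXL3 and FOXS1 did not pass it. The 3 DJL1 and 4 CTRL libraries come from H9, an established human embryonic stem cell line, labelled as naive and grown in RSeT medium. The title places the study at LINE1 elements beside the rDNA repeats and nucleolar organization. Cells of both groups received plasmids in RSeT with 10 nM DZNep, an inhibitor of histone methylation, and 5 nM TSA, a histone deacetylase inhibitor. A survival cocktail (Chroman 1, Emricasan, polyamine and Trans-ISRIB) was present for the first 16 hours, and RNA was taken 48 hours after transfection. What the CTRL plasmids target and which effector acts with the guides is not stated in the labels, and the labels leave it unclear whether cells were sorted. All cells are of 1 line, and both groups carry the chromatin inhibitors, so no value describes cells without them.

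Most forkhead factors bind DNA as monomers at variants of a shared core motif, and many members of the family mark a lineage. FOXA proteins open chromatin in endoderm, and FOXC and FOXF proteins act in mesoderm and mesenchyme. FOXH1 carries SMAD complexes to DNA in Nodal signalling, most FOXO proteins are held in the cytoplasm by AKT, and FOXM1 drives genes of the G2 and M phases. In pluripotent cells the lineage members are mostly quiet, whereas FOXH1, FOXD3 and the broadly expressed members are active.

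Values are CPM, counts per 1000000 counts of a library scaled by TMM factors, and they are given in the order of the replicates. Each log2 fold change sets DJL1 over CTRL and comes with its standard error and the adjusted p from edgeR's quasi-likelihood test. Library totals were 34634882 to 37795742 counts in DJL1 and 62277489 to 76691997 counts in CTRL, so the groups do not overlap in depth. A count of 3, the limit that a count of 0 allows, corresponds to 0.0783 to 0.0856 CPM in DJL1 libraries and 0.0395 to 0.0483 CPM in CTRL libraries, for counting error only. The biological coefficient of variation was 13.8% among DJL1 libraries and 3.46% among CTRL libraries. Of 12 markers of pluripotent cells 9 were lower in DJL1, with summed levels of 9202 to 10319 CPM in DJL1 and 11547 to 11813 CPM in CTRL. POU5F1 was at 5153, 5250.5 and 5660.4 CPM in the DJL1 libraries, against 5275, 5374, 5248 and 5397 CPM in the CTRL libraries, and its groups overlapped (log2 fold change 0.01 ± 0.04, adjusted p = 0.879). NANOG (-0.50 ± 0.05, adjusted p = 9.43e-07) and SOX2 (-0.39 ± 0.04, adjusted p = 2.56e-06) were lower. Of 12 markers of the naive state 9 were higher and 3 lower, with sums of 529.9 to 607 CPM in DJL1 and 468 to 474 CPM in CTRL, and no marker of either list was at 0 in all libraries. Of all tested genes 27.0% were higher and 25.1% lower, and of those at 10 CPM or more 26.7% and 43.4%.

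Of the 44 tested forkhead genes 27 were higher in DJL1, 9 were lower and 8 did not pass the test (edgeR, adjusted p under 0.05). Over all tested genes 52.0% were called, 27.0% higher and 25.1% lower. The median log2 fold change was 0.86 over the forkhead genes and 0.01 over all tested genes, and under a stricter filter (1 CPM in 3 libraries), which tests 35 forkhead genes, the forkhead median was 0.35. Changes past 2-fold went 1 way: 18 forkhead genes were called and at least 2-fold higher, against 10.7% of all tested genes, and none was called and at least 2-fold lower, against 2.20%, the lowest log2 fold change being -0.78. The lower members were FOXA3, FOXB1, FOXB2, FOXD3, FOXH1, FOXJ3, FOXM1, FOXN3 and FOXO4. The groups did not overlap for 28 members that were higher in DJL1 and 10 that were lower, where 27.4% and 26.2% of all tested genes were without overlap in those directions. Among these members, FOXO1B on the higher side and FOXP1 on the lower side were only just apart. The filter favours genes that are high in either group: 38 members passed it on the CTRL libraries alone, and of these 22 were higher and 9 lower. The other 6, FOXA1, FOXD2, FOXE3, FOXN1, FOXO1B and FOXR2, passed only with DJL1 libraries, so their direction is in part set by the filter. All of these 6 but FOXR2 are among the 18 genes called and at least 2-fold higher. DESeq2, limma-voom and edgeR without adjustment also gave 27 higher and 9 lower. In bulk RNA, more cells of a type and more RNA per cell cannot be told apart.

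**Figure D1:**
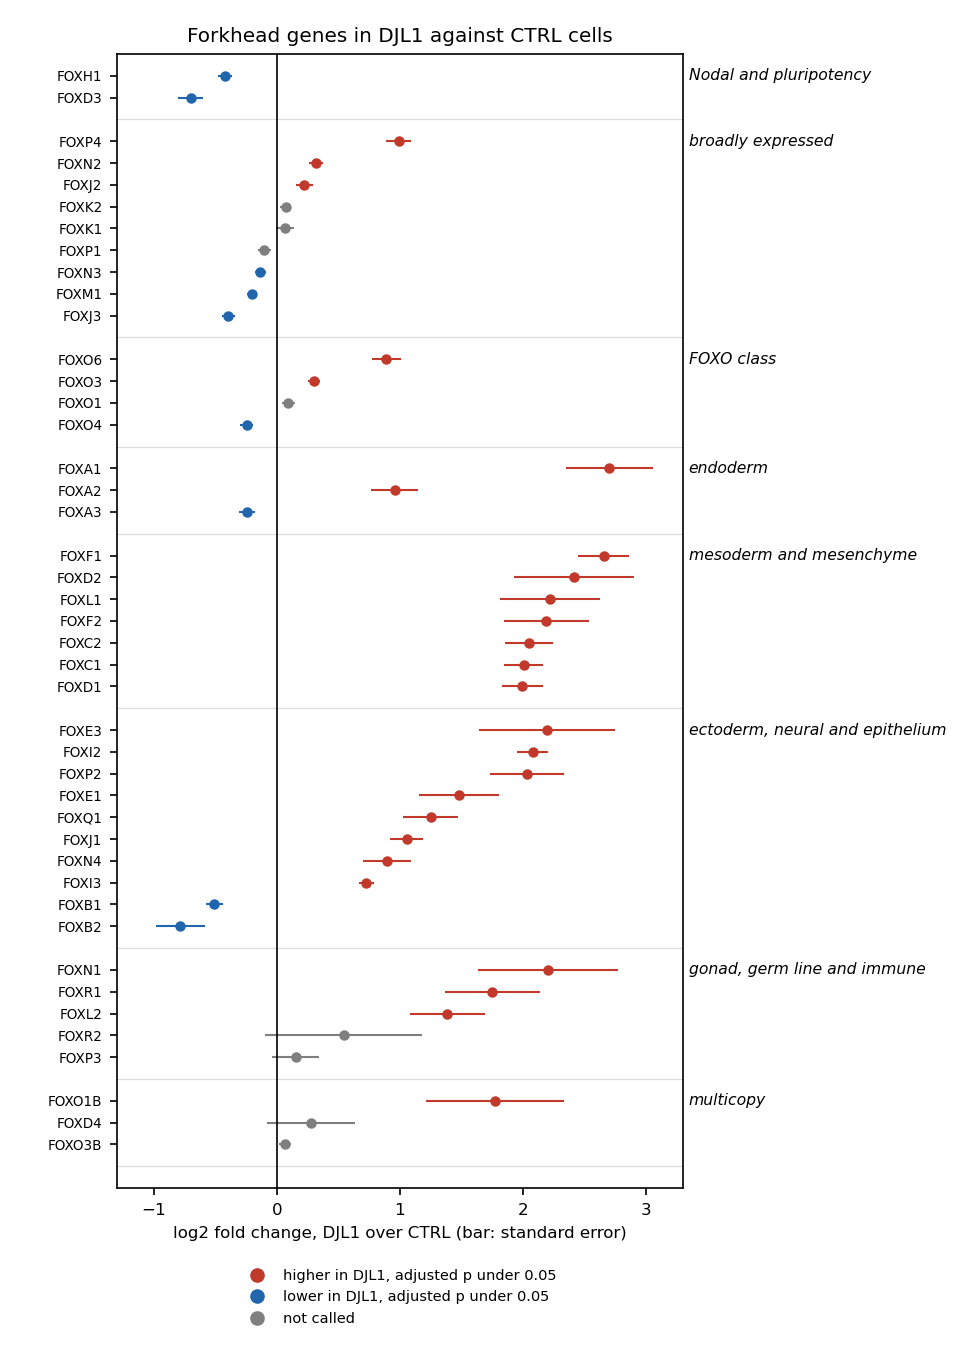
Log2 fold change of DJL1 over CTRL for tested forkhead genes, with bars of 1 standard error, grouped by role. The 7 tested genes of mesoderm and mesenchyme lie between 1.996 and 2.66, and the lowest value is -0.78 (FOXB2).

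The summed level of the family was close in both groups, at 874, 872 and 887 CPM in DJL1 and 852, 854, 858 and 861 CPM in CTRL. The broadly expressed members made up 492 to 503 CPM of it in DJL1 and 522 to 525 CPM in CTRL. Of 12 members with a mean under 1 CPM, 10 were higher and 0 lower, where 38.1% and 2.88% of all tested protein-coding genes at that level were called. Of these, 6 passed the filter on the CTRL libraries alone, and 5 of them were higher and 0 lower. Of 16 members between 1 and 10 CPM, 13 were higher and 2 lower, beside 47.0% and 12.3% of protein-coding genes. Of 16 members at 10 CPM or more, 4 were higher and 7 lower, shares of 25.0% and 43.8% that lie close to the 27.5% and 42.9% of protein-coding genes.

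**Figure D2:**
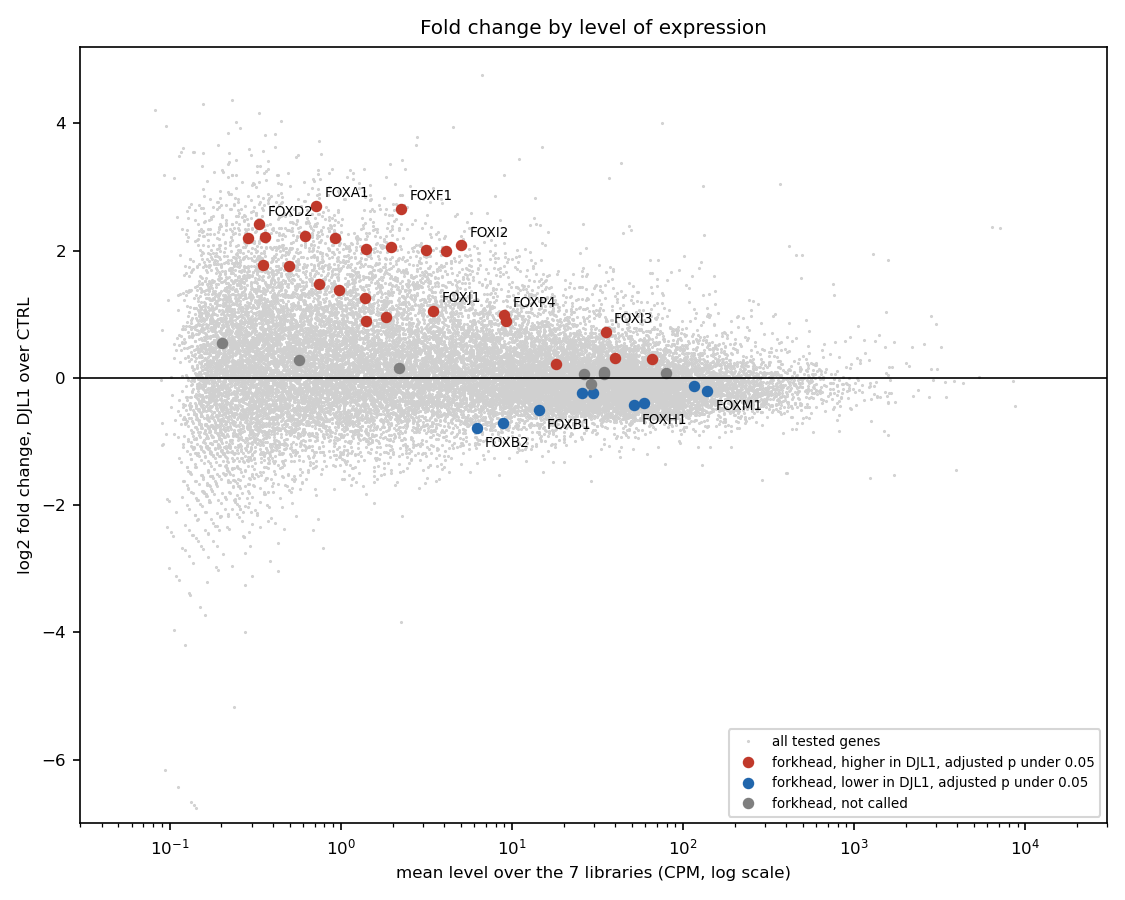
Log2 fold change of DJL1 over CTRL against the mean level over the 7 libraries (CPM, log scale) for all tested genes in grey, with forkhead genes in colour by call. Forkhead genes called lower lie mostly at 10 CPM or more, and those past 2-fold all lie under 10 CPM.

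FOXH1 and FOXD3, the members most tied to the pluripotent state, were both lower in DJL1, by less than 2-fold. FOXH1, the DNA-binding partner of SMAD complexes in Nodal signalling, was at 42.6, 38.7 and 47.5 CPM in the DJL1 libraries, against 58.6, 57.7, 55.6 and 58.3 CPM in the CTRL libraries. The groups were apart, and the log2 fold change was -0.42 ± 0.06, adjusted p = 2.25e-05. FOXH1 overlaps KIFC2, and whether counting used strand is not given in the sources used here, so reads of overlapping genes may be mixed in it and in the overlapping pairs named further on. FOXD3, a neural crest factor that the mouse epiblast needs, was at 5.58, 7.10 and 6.80 CPM in the DJL1 libraries, against 9.61, 11.0, 11.1 and 10.5 CPM in the CTRL libraries. Every DJL1 library was under every CTRL library (log2 fold change -0.70 ± 0.10, adjusted p = 3.33e-05). FOXD3-AS1, the antisense RNA of this locus, fell alongside it, with 17.2, 17.3 and 21.1 CPM in the DJL1 libraries, against 31.1, 31.6, 29.4 and 31.3 CPM in the CTRL libraries (-0.73 ± 0.07, adjusted p = 5.43e-07). The genes overlap on chromosome 1 (FOXD3 at 63322567 to 63325128, FOXD3-AS1 at 63320884 to 63324441, GRCh38.p14), so reads in the shared stretch may be mixed. The FOXD3 promoter window (RefSeq, GRCh38.p14, chr1:63322317-63322616, + strand) is shown because it holds the FOXD3 start and an annotated start of FOXD3-AS1 on the other strand, with the 108 bases between these start sites in capitals.
FOXD3: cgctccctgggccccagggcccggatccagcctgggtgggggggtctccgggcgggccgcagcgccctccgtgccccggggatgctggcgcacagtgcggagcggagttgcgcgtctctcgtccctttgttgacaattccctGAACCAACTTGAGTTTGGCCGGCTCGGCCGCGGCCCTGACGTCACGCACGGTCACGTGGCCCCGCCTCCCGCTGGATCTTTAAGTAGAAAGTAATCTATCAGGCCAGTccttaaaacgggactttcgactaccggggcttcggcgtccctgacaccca
Among 19 tested FOXH1 partners and Nodal target genes, 8 were higher and 9 lower, with a median log2 fold change of -0.10, where 27.0% and 25.1% of all tested genes were higher and lower. LEFTY2, a Nodal inhibitor and target, was at 915, 867 and 1025 CPM in the DJL1 libraries, against 1479, 1536, 1467 and 1489 CPM in the CTRL libraries (log2 fold change -0.67 ± 0.05, adjusted p = 3.09e-08). TDGF1, the Nodal co-receptor, was also lower (-0.63 ± 0.05, adjusted p = 1.32e-07). EOMES and TBXT, mesendoderm factors that Nodal induces, were higher (2.43 ± 0.21, adjusted p = 1.13e-07 for EOMES and 1.96 ± 0.23, adjusted p = 3.21e-06 for TBXT).

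All 3 FOXA genes were called, FOXA1 and FOXA2 higher and FOXA3 lower. FOXA1, a pioneer factor of endoderm and of hormone-responsive epithelia, was at 1.07, 1.57 and 1.54 CPM in the DJL1 libraries, against 0.241, 0.145, 0.145 and 0.318 CPM in the CTRL libraries. All DJL1 libraries lay above all CTRL libraries (log2 fold change 2.71 ± 0.36, adjusted p = 1.2e-05). FOXA1 passed the filter only with DJL1 libraries, so its direction is in part set by the filter. FOXA2, a factor of definitive endoderm, node and floor plate, was at 2.19, 2.88 and 2.54 CPM in the DJL1 libraries, against 1.16, 1.13, 1.37 and 1.56 CPM in the CTRL libraries (log2 fold change 0.96 ± 0.19, adjusted p = 0.000591). FOXA3, which acts in liver and gut, was at 22.1, 21.7 and 25.7 CPM in the DJL1 libraries, against 27.9, 27.6, 28.1 and 26.1 CPM in the CTRL libraries (-0.24 ± 0.07, adjusted p = 0.00597). Per kilobase of exon, FOXA3 made up 86.8 to 90.1% of the FOXA level in DJL1 and 94.9 to 96.6% in CTRL. Of 14 tested genes of definitive endoderm and its derivatives, 12 were higher and none was lower in DJL1, with a median log2 fold change of 1.78. DESeq2, limma-voom and edgeR without adjustment also called 12 higher and 0 lower. By edgeR, 27.0% of all tested genes were higher and 25.1% lower. Of protein-coding genes, 38.1% were higher under 1 CPM and 47.0% from 1 to 10 CPM, with 2.88% and 12.3% lower. How many of the 14 passed the filter only with DJL1 libraries was not counted. The direction of such genes is in part set by the filter. SOX17 (2.56 ± 0.25, adjusted p = 4.41e-07), GATA4 (2.49 ± 0.24, adjusted p = 5.45e-07), GATA6 (1.21 ± 0.12, adjusted p = 9.63e-07) and CXCR4 (1.01 ± 0.10, adjusted p = 6.06e-07), genes of early endoderm, had the smallest adjusted p of the list. Of 13 tested markers of primitive endoderm, which share GATA4, GATA6 and SOX17 with that list, 7 were higher and 2 lower, with summed levels of 272 to 284 CPM in DJL1 and 295 to 299 CPM in CTRL.

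All 7 tested members of mesoderm and mesenchyme were higher, with log2 fold changes of 1.996 (FOXD1) to 2.66 (FOXF1). Their summed level with FOXS1 was 23.0 to 25.4 CPM in DJL1 and 4.96 to 5.89 CPM in CTRL. Of the 7, FOXD2 passed the filter only with DJL1 libraries, so its direction is in part set by the filter. The share called higher was 27.0% over all tested genes. FOXF1, a factor of lung and gut mesenchyme that Hedgehog signalling induces, was at 4.57, 5.16 and 3.24 CPM in the DJL1 libraries, against 0.706, 0.605, 0.836 and 0.591 CPM in the CTRL libraries. The groups were far apart (log2 fold change 2.66 ± 0.21, adjusted p = 5.27e-08). FOXF2, its relative in gut and palate mesenchyme, was at 2.37, 1.57 and 1.03 CPM in the DJL1 libraries, against 0.369, 0.210, 0.515 and 0.363 CPM in the CTRL libraries (2.19 ± 0.35, adjusted p = 7.15e-05). FOXF2 varied among the DJL1 libraries, where replicate 1 was the highest, and its locus overlaps FOXF2-DT. FOXC1, which acts in head mesenchyme, eye and heart, was at 4.57, 5.79 and 6.04 CPM in the DJL1 libraries, against 1.32, 1.16, 1.46 and 1.499 CPM in the CTRL libraries (2.01 ± 0.16, adjusted p = 6.19e-08). FOXC2, known for lymphatic vessels and overlapped by FOXC2-AS1, was at 3.31, 3.51 and 3.51 CPM in the DJL1 libraries, against 1.04, 0.750, 0.643 and 0.878 CPM in the CTRL libraries (2.05 ± 0.20, adjusted p = 4.15e-07). In both FOXC genes every DJL1 library was above every CTRL library. FOXD1, a factor of the kidney stroma, was at 7.25, 6.96 and 7.42 CPM in the DJL1 libraries, against 1.17, 1.99, 1.95 and 2.10 CPM in the CTRL libraries (1.996 ± 0.17, adjusted p = 1.08e-07). Its CTRL replicate 1 was the lowest of that group.

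The remaining mesenchymal members were at lower levels. FOXD2, which acts in mesenchyme of kidney and face in the mouse, was at 0.705, 0.456 and 0.701 CPM in the DJL1 libraries, against 0.144, 0.0526, 0.161 and 0.106 CPM in the CTRL libraries (log2 fold change 2.42 ± 0.49, adjusted p = 0.000658). FOXL1, a marker of the mesenchymal cells under the gut epithelium in the mouse, was at 0.548, 1.80 and 0.998 CPM in the DJL1 libraries, against 0.193, 0.250, 0.273 and 0.227 CPM in the CTRL libraries (2.22 ± 0.41, adjusted p = 0.000268). In both genes no DJL1 library reached down to a CTRL library. FOXS1, which was not tested, had 17, 4 and 2 counts in DJL1 libraries and 1, 7, 3 and 2 counts in CTRL libraries, and overlaps DUSP15. Of 18 tested mesenchymal genes of tissues that use FOXC and FOXF factors, 15 were higher and 2 were lower, with a median log2 fold change of 1.10. The shares over all tested genes were 27.0% higher and 25.1% lower. The summed level of the list was close in both groups, at 258 CPM in DJL1 and 251 CPM in CTRL. How many of the 18 passed the filter only with DJL1 libraries was not counted, and the filter in part sets the direction of such genes. TBX5 (2.51 ± 0.31, adjusted p = 6.58e-06), HAND1 (2.15 ± 0.20, adjusted p = 3.64e-07) and TWIST1 (0.51 ± 0.06, adjusted p = 7.23e-06), transcription factors of heart, limb and head mesenchyme, were higher. Mean levels in DJL1 and CTRL were 1.34 and 0.235 CPM for TBX5, 3.21 and 0.723 CPM for HAND1, and 25.9 and 18.2 CPM for TWIST1. GLI2 (-0.92 ± 0.08, adjusted p = 8.81e-08), with a mean of 34.7 CPM in DJL1 and 65.9 CPM in CTRL, was lower. GLI1 was lower too, and both are Hedgehog effectors. Of the same list and pathway, PTCH1 (0.34, adjusted p = 8.12e-06) and HHIP (0.39, adjusted p = 0.0137) were higher. Beside this, 10 of 13 tested fibroblast markers were higher and 1 was lower, with summed levels of 1585 to 1723 CPM in DJL1 and 1190 to 1209 CPM in CTRL, while DCN and LUM were too low to be tested. The part of such cells in the result was not tested.

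**Figure D3:**
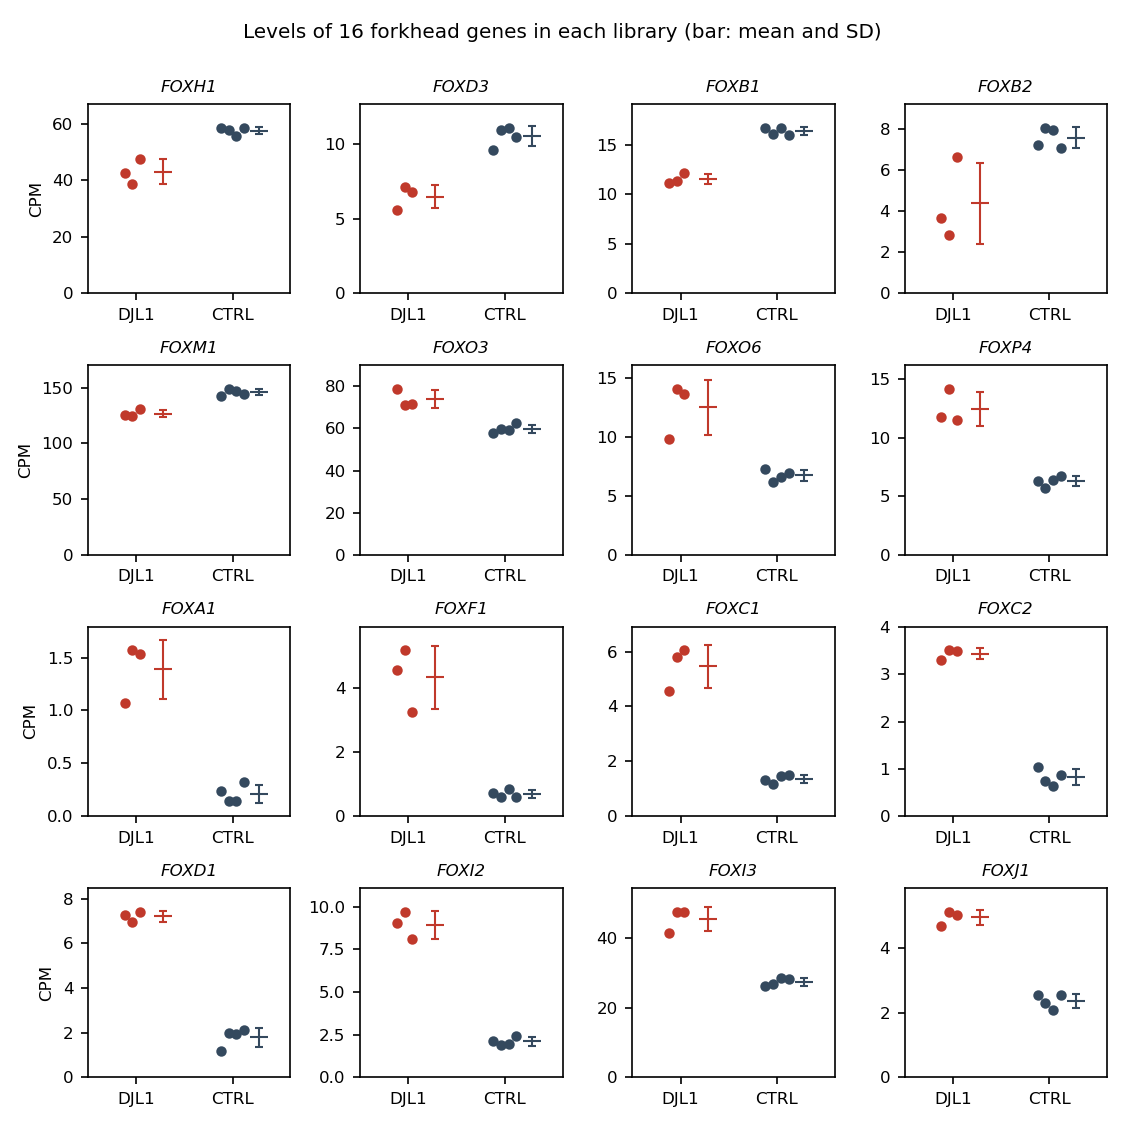
Level in CPM of 16 forkhead genes, 1 panel each with its own linear axis starting at 0. Points are libraries, DJL1 left and CTRL right, with the mean and SD beside them; the groups are apart in every panel, and DJL1 replicate 3 of FOXB2 (6.61 CPM) comes close to the lowest CTRL library (7.06 CPM).

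At 2 loci, on chromosomes 6 and 16, forkhead genes that lie together were all higher in DJL1. Of all 44 tested forkhead genes 27 were higher, and of all tested genes 27.0%. Among protein-coding genes 38.1% were higher under 1 CPM and 47.0% from 1 to 10 CPM, the levels of these members. Genes of these loci other than forkhead genes and the RNAs beside them were not examined, so nothing is read about the loci. On chromosome 6 FOXQ1 (1312098 to 1314758), FOXF2 (1389576 to 1395603) and FOXC1 (1609915 to 1613897, GRCh38.p14) were higher in DJL1 by 1.25, 2.19 and 2.01 on the log2 scale. On chromosome 16 FOXF1 (86510527 to 86515422), FOXC2 (86566829 to 86569728) and FOXL1 (86578549 to 86583478) were higher by 2.66, 2.05 and 2.22. FENDRR, a long noncoding RNA that starts near FOXF1 with 1667 bases between the genes, was at 0.209, 0.884 and 0.728 CPM in the DJL1 libraries, against 0.0963, 0.0395, 0.0965 and 0.0606 CPM in the CTRL libraries (3.03 ± 0.59, adjusted p = 0.000477). Every FENDRR value in CTRL rests on a handful of counts, so its fold is imprecise. FENDRR passed the filter only with DJL1 libraries, so its direction is in part set by the filter. On chromosome 1 FOXE3 (47416285 to 47418052) and FOXD2 (47438044 to 47440691) were higher, and so was FOXD2-AS1 between them (0.72 ± 0.19, adjusted p = 0.00524). FOXE3 and FOXD2 passed the filter only with DJL1 libraries, so their shared direction is in part set by the filter and nothing is read from it. Other forkhead neighbours did not pass the test: FOXL2NB beside FOXL2 (adjusted p = 0.0627), FOXN3-AS1 in FOXN3 (0.0987), FOXP1-AS1 in FOXP1 (0.307) and LINC00261 beside FOXA2 (0.694). Of these FOXN3, FOXA2 and FOXL2 themselves were called. The promoter windows of the 3 chromosome 6 genes (250 bases before to 50 after the start, RefSeq, GRCh38.p14, + strand) are shown as neighbouring members that were each called higher, with CG dinucleotides in capitals. They hold 35, 26 and 40 CG dinucleotides.
FOXQ1 at chr6:1311848-1312147: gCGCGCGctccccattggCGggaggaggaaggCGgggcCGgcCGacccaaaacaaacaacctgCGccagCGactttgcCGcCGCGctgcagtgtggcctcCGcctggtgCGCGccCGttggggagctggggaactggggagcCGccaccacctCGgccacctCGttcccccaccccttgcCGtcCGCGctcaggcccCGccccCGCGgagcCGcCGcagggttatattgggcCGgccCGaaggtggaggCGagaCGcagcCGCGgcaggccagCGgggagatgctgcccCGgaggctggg
FOXF2 at chr6:1389326-1389625: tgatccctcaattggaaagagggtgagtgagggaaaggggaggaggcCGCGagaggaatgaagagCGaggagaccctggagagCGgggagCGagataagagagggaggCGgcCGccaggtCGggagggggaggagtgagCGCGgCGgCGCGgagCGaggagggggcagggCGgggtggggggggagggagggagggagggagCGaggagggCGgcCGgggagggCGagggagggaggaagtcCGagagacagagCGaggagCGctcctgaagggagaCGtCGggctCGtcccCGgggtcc
FOXC1 at chr6:1609665-1609964: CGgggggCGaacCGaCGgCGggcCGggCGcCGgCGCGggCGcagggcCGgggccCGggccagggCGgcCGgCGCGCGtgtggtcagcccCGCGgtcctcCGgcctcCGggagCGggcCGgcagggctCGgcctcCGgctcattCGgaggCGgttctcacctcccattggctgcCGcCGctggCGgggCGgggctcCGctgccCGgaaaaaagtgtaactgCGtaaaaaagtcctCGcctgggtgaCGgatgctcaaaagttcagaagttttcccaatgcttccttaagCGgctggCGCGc
The core GTAAACA was in 0 of 22 windows of forkhead genes called higher, 1 of 9 called lower and 1 of 13 not called. It was in 3.42% of all windows. The FENDRR window (chr16:86508811-86509110, - strand) is shown because it holds this forkhead core, in capitals, and whether a forkhead factor acts there was not tested.
FENDRR: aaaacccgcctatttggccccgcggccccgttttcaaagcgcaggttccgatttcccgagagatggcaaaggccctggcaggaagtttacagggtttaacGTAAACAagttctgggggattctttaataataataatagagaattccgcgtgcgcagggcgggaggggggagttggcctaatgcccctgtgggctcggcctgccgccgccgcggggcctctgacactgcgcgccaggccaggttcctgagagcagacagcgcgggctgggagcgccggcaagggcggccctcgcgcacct

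Of 11 tested members of ectoderm, neural tissue and epithelium, 9 were higher and 2 were lower. The shares over all tested genes were 27.0% higher and 25.1% lower. FOXE3 passed the filter only with DJL1 libraries. FOXI2, a relative of the placode factor FOXI3, was at 9.03, 9.70 and 8.09 CPM in the DJL1 libraries, against 2.12, 1.92, 1.95 and 2.45 CPM in the CTRL libraries. The DJL1 libraries stood well above CTRL (log2 fold change 2.08 ± 0.13, adjusted p = 4.2e-09), with the smallest adjusted p of the family. FOXI3, an early placode and ectoderm factor, was at a much higher level, 41.5, 47.5 and 47.6 CPM in the DJL1 libraries, against 26.3, 26.9, 28.5 and 28.2 CPM in the CTRL libraries (0.73 ± 0.06, adjusted p = 6.81e-08). FOXP2, which acts in brain and is known from speech disorders, was at 1.90, 3.85 and 1.67 CPM in the DJL1 libraries, against 0.578, 0.434, 0.788 and 0.621 CPM in the CTRL libraries (2.03 ± 0.30, adjusted p = 3.7e-05). Its DJL1 replicate 2 stood above the other two. FOXE1, a thyroid factor, was at 1.15, 1.23 and 1.16 CPM in the DJL1 libraries, against 0.530, 0.263, 0.322 and 0.575 CPM in the CTRL libraries (1.48 ± 0.32, adjusted p = 0.00118). FOXE3, a lens factor, was at 0.444, 0.228 and 0.890 CPM in the DJL1 libraries, against 0.0642, 0.118, 0.113 and 0.151 CPM in the CTRL libraries (2.20 ± 0.55, adjusted p = 0.00349). FOXE3 overlaps LINC01389. Its values rest on few counts, and without DJL1 replicate 3 its log2 fold change was 1.56 with an adjusted p of 0.0428.

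FOXQ1, a factor found in epithelia of gut and skin, was at 2.09, 2.45 and 1.70 CPM in the DJL1 libraries, against 0.995, 0.986, 0.788 and 0.712 CPM in the CTRL libraries (log2 fold change 1.25 ± 0.22, adjusted p = 0.000199). FOXN4, a factor of retinal progenitors in the mouse, was at 1.67, 2.03 and 2.02 CPM in the DJL1 libraries, against 1.06, 0.986, 1.01 and 1.03 CPM in the CTRL libraries (0.90 ± 0.20, adjusted p = 0.0012). In both, the DJL1 and CTRL libraries did not overlap. The lower members of this role were both FOXB genes. FOXB1, which acts in the hypothalamus and hindbrain of the mouse, was at 11.1, 11.4 and 12.1 CPM in the DJL1 libraries, against 16.7, 16.1, 16.7 and 16.0 CPM in the CTRL libraries (-0.51 ± 0.07, adjusted p = 1.86e-05). FOXB2 was at 3.68, 2.85 and 6.61 CPM in the DJL1 libraries, against 7.20, 8.05, 7.93 and 7.06 CPM in the CTRL libraries (-0.78 ± 0.20, adjusted p = 0.00426). DJL1 replicate 3 of FOXB2 stood near the CTRL libraries, and without it the log2 fold change was -1.22 in place of -0.78. Of 12 tested neural markers 11 were higher and 0 lower, by edgeR with and without adjustment, DESeq2 and limma-voom, with summed levels of 1199 to 1285 CPM in DJL1 and 1064 to 1094 CPM in CTRL. PAX6 (1.91 ± 0.14, adjusted p = 2.23e-08), SOX1 (2.98 ± 0.35, adjusted p = 4.18e-06) and LHX2 (2.35 ± 0.36, adjusted p = 4.83e-05) were among them. SOX1 passed the filter only with DJL1 libraries, so its direction is in part set by the filter. The shares over all tested genes were 27.0% higher and 25.1% lower. Of 12 tested trophectoderm markers 9 were higher and 1 lower, with sums of 408 to 432 CPM in DJL1 and 355 to 364 CPM in CTRL. The part of such cells in the results on ectoderm members was not tested.

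FOXJ1, the regulator of motile cilia, was at 4.67, 5.11 and 5.02 CPM in the DJL1 libraries, against 2.55, 2.30, 2.09 and 2.53 CPM in the CTRL libraries. All DJL1 libraries were above all CTRL libraries (log2 fold change 1.06 ± 0.13, adjusted p = 8.55e-06). FOXJ1 overlaps RNF157-AS1. Of 26 tested motile cilium genes, 8 were higher, 1 was lower and 17 did not pass the test, where 27.0% of all tested genes were higher and 25.1% lower. CFAP43 (1.65 ± 0.23, adjusted p = 2.16e-05) and SPAG6 (1.94 ± 0.31, adjusted p = 8.91e-05), parts of the axoneme, were higher, as were RSPH4A (0.86 ± 0.24, adjusted p = 0.0068) and TPPP3 (0.56 ± 0.11, adjusted p = 0.000408). DNAH11, an outer dynein arm chain, was the lower gene.

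**Figure D4:**
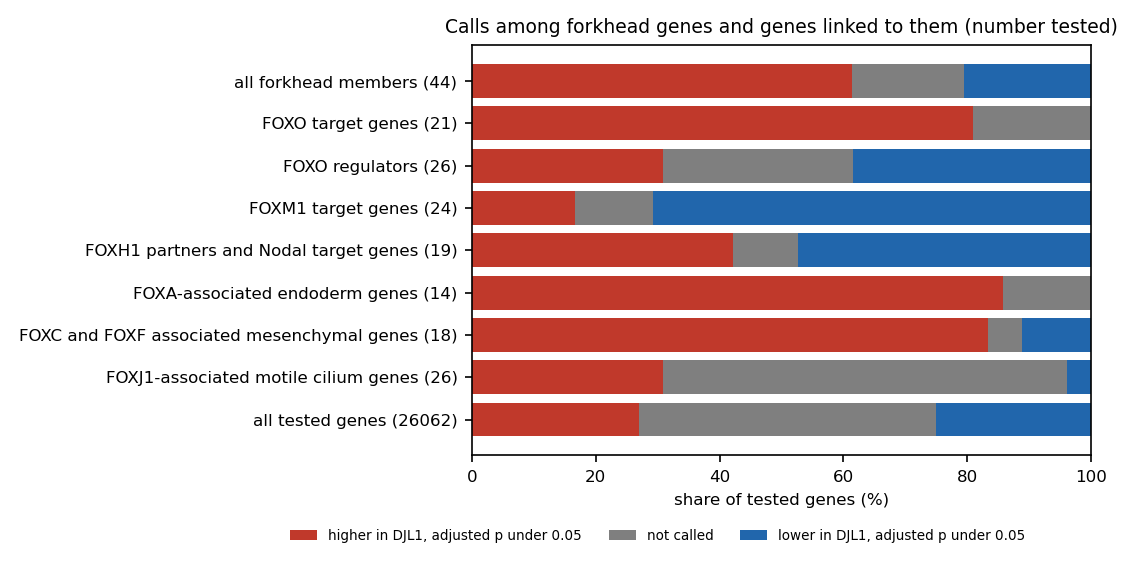
Share of tested genes (%) called higher, not called and called lower in DJL1 against CTRL, for the forkhead genes, 7 lists of linked genes and all tested genes, with the number tested in brackets. FOXO target genes were 17 higher and 0 lower of 21, and FOXM1 target genes 4 higher and 17 lower of 24.

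The FOXO genes moved in different directions. AKT holds the FOXO1, FOXO3 and FOXO4 proteins out of the nucleus when insulin signalling is active. FOXO3 was at 78.8, 71.2 and 71.5 CPM in the DJL1 libraries, against 58.0, 59.9, 59.5 and 62.5 CPM in the CTRL libraries (log2 fold change 0.30 ± 0.05, adjusted p = 7.17e-05). FOXO6, a brain FOXO, was at 9.84, 14.1 and 13.7 CPM in the DJL1 libraries, against 7.27, 6.19, 6.64 and 6.92 CPM in the CTRL libraries (0.89 ± 0.12, adjusted p = 1.05e-05). FOXO6, which overlaps FOXO6-AS1, had the largest fold of the class, and replicate 1 was the lowest of its DJL1 libraries. FOXO4 was at 26.9, 26.9 and 26.8 CPM in the DJL1 libraries, against 33.2, 31.8, 30.4 and 32.1 CPM in the CTRL libraries (-0.24 ± 0.05, adjusted p = 0.00106). FOXO1 was at 35.7, 37.4 and 34.7 CPM in the DJL1 libraries, against 32.8, 32.9, 34.0 and 34.8 CPM in the CTRL libraries, and the groups overlapped (0.09 ± 0.05, adjusted p = 0.136). By CPM per kilobase of exon, FOXO4 made up 24.4 to 26.1% of the class in DJL1 and 33.7 to 35.6% in CTRL, whereas FOXO6 made up 21.3 to 28.5% in DJL1 and 15.4 to 17.5% in CTRL. The length of FOXO6 in GENCODE 29 holds coding bases only, so its share is overstated in both groups. Of 21 tested genes known as FOXO targets, 17 were higher and none was lower, with a median log2 fold change of 0.83. Without adjustment edgeR gave 18 higher and 1 lower, and DESeq2 and limma-voom gave 17 and 0. GADD45A, a growth arrest gene, was at 353, 419 and 361 CPM in the DJL1 libraries, against 159, 161, 172 and 164 CPM in the CTRL libraries (1.20 ± 0.05, adjusted p = 1.67e-10). TXNIP, which limits glucose uptake, was higher (1.44 ± 0.06, adjusted p = 1.87e-10). SESN1 (1.02 ± 0.05, adjusted p = 3.63e-10), a stress-induced gene, and IRS2 (0.98 ± 0.05, adjusted p = 6.7e-10), an insulin receptor substrate, were also higher. GADD45A and SESN1 are targets of p53 as well. Of 26 tested regulators of FOXO factors, 8 were higher and 10 lower, where 27.0% and 25.1% of all tested genes were called in those directions, and 26.7% and 43.4% of those at 10 CPM or more. MDM2, a ubiquitin ligase that p53 induces (0.98 ± 0.05, adjusted p = 1.17e-09), PIK3R1 (0.62 ± 0.06, adjusted p = 5.69e-07) and SGK1 (0.36 ± 0.04, adjusted p = 7.7e-07) were higher, and AKT2 (-0.46 ± 0.04, adjusted p = 1.01e-07) was lower.

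**Figure D5:**
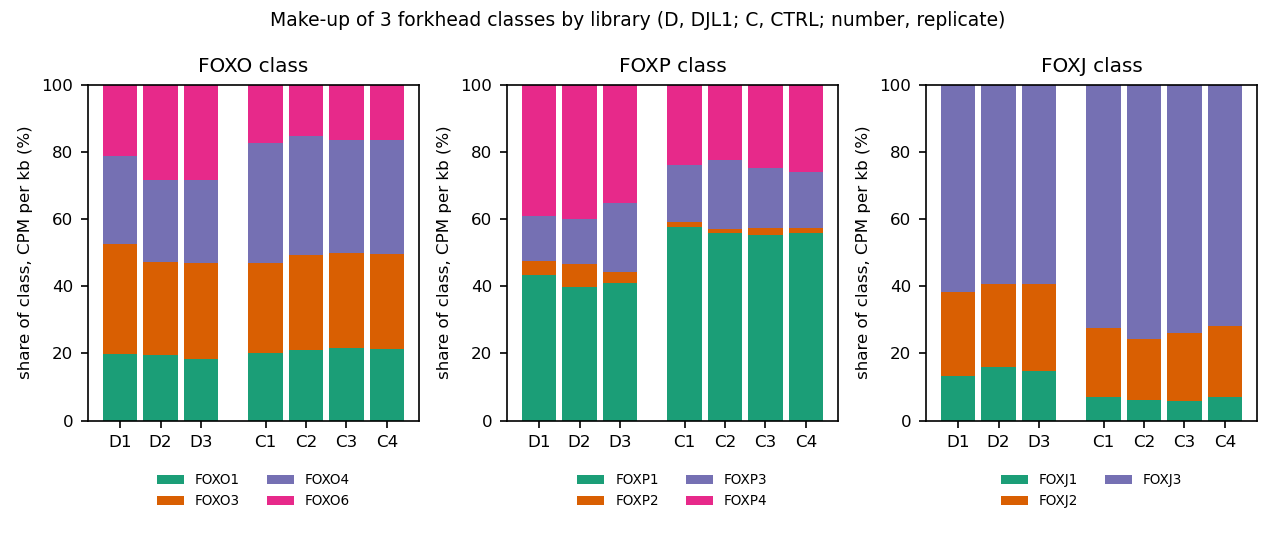
Share of each gene in the FOXO, FOXP and FOXJ classes, in percent of CPM per kilobase of exon, as 1 stacked bar for each DJL1 (D) and CTRL (C) library. FOXP4 makes up 35.3 to 39.9% of the FOXP level in DJL1 and 22.6 to 26.0% in CTRL, with no overlap.

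Among 9 broadly expressed members 3 were higher, 3 lower and 3 not called, most by small folds. Over all tested genes 27.0% were higher and 25.1% lower. FOXM1, which drives mitotic genes, was at 125, 124 and 130.5 CPM in the DJL1 libraries, against 143, 149, 147 and 144 CPM in the CTRL libraries. The groups did not overlap (log2 fold change -0.20 ± 0.04, adjusted p = 0.000347). FOXM1 overlaps ITFG2 and RHNO1. Of 24 tested FOXM1 target genes, 4 were higher and 17 lower, with a median log2 fold change of -0.30. CDK1, the mitotic kinase, was at 46.9, 40.4 and 41.6 CPM in the DJL1 libraries, against 65.5, 66.7, 65.9 and 66.8 CPM in the CTRL libraries (-0.62 ± 0.05, adjusted p = 1.04e-07). AURKB (-0.44 ± 0.04, adjusted p = 3.72e-07) and STMN1 (-0.48 ± 0.04, adjusted p = 3.33e-08) were also lower, and CDC20, an activator of the anaphase complex, was higher (0.51 ± 0.05, adjusted p = 1.34e-06). At 10 CPM or more, 26.7% of all tested genes were called higher and 43.4% lower.

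FOXP4 was the broadly expressed member with the largest fold, at 11.8, 14.2 and 11.5 CPM in the DJL1 libraries, against 6.31, 5.73, 6.35 and 6.75 CPM in the CTRL libraries (log2 fold change 0.99 ± 0.10, adjusted p = 6.69e-07). FOXP1, its relative, was at 27.0, 29.1 and 27.5 CPM in the DJL1 libraries, against 31.2, 29.2, 29.1 and 29.9 CPM in the CTRL libraries (-0.10 ± 0.05, adjusted p = 0.137). Its groups all but touched, with DJL1 replicate 2 at 29.0989 CPM and CTRL replicate 3 at 29.0995 CPM. It passed the test without DJL1 replicate 2 (-0.14, adjusted p = 0.0378). FOXP4 and FOXP1 overlap FOXP4-AS1 and FOXP1-AS1. FOXP1 was 39.7 to 43.4% of the FOXP level per kilobase in DJL1 and 55.2 to 57.7% in CTRL. FOXJ3 was at 53.6, 47.0 and 49.8 CPM in the DJL1 libraries, against 65.1, 70.2, 64.4 and 63.9 CPM in the CTRL libraries (-0.39 ± 0.05, adjusted p = 1.42e-05). FOXJ2 was at 20.3, 18.4 and 20.3 CPM in the DJL1 libraries, against 17.4, 15.9, 16.5 and 17.6 CPM in the CTRL libraries (0.22 ± 0.07, adjusted p = 0.0109). FOXJ3 was lower and FOXJ2 higher, and FOXJ3 made up 59.3 to 61.8% of the FOXJ level per kilobase in DJL1 and 71.9 to 75.6% in CTRL. FOXN2 was at 48.8, 43.1 and 42.8 CPM in the DJL1 libraries, against 38.1, 35.2, 34.4 and 36.3 CPM in the CTRL libraries (0.32 ± 0.06, adjusted p = 0.000247). FOXN3, linked to the DNA damage checkpoint, was at 115, 102 and 109.7 CPM in the DJL1 libraries, against 119.6, 117, 121 and 120.2 CPM in the CTRL libraries (-0.13 ± 0.04, adjusted p = 0.0168). The FOXN3 difference was the smallest among called members, and without CTRL replicate 4 it had an adjusted p of 0.0519. FOXK1 and FOXK2, repressors of autophagy genes, did not pass the test. FOXK1 was at 23.3, 30.8 and 26.5 CPM in the DJL1 libraries, against 26.1, 25.9, 26.2 and 24.3 CPM in the CTRL libraries (0.07 ± 0.08, adjusted p = 0.498). FOXK2 was at 78.2, 82.6 and 83.5 CPM in the DJL1 libraries, against 74.9, 74.6, 80.0 and 79.9 CPM in the CTRL libraries (0.07 ± 0.04, adjusted p = 0.18).

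Of 5 tested members known from gonad, germ line, thymus and immune cells, 3 were higher and none was lower by edgeR with and without adjustment, DESeq2 and limma-voom. By edgeR with adjustment, 27.0% of all tested genes were higher and 25.1% lower. FOXN1 and FOXR2 passed the filter only with DJL1 libraries. FOXL2, the ovarian granulosa factor, was at 1.90, 1.83 and 0.809 CPM in the DJL1 libraries, against 0.546, 0.710, 0.483 and 0.560 CPM in the CTRL libraries (log2 fold change 1.39 ± 0.31, adjusted p = 0.00126). FOXN1, the thymic epithelium factor, was at 1.15, 0.542 and 0.270 CPM in the DJL1 libraries, against 0.0642, 0.105, 0.257 and 0.136 CPM in the CTRL libraries (2.21 ± 0.57, adjusted p = 0.00403). FOXN1 rests on few counts, and without DJL1 replicate 1 its log2 fold change was 1.51 with an adjusted p of 0.0623. FOXR1 was at 0.678, 0.913 and 0.917 CPM in the DJL1 libraries, against 0.225, 0.263, 0.145 and 0.348 CPM in the CTRL libraries (1.75 ± 0.39, adjusted p = 0.00125). Every FOXR1 value in DJL1 was above those in CTRL. FOXP3, the regulatory T cell factor, was at 1.80, 2.14 and 2.97 CPM in the DJL1 libraries, against 1.97, 2.31, 2.04 and 1.94 CPM in the CTRL libraries (0.15 ± 0.19, adjusted p = 0.526), and it overlaps CCDC22. FOXR2 was at 0.0783, 0.143 and 0.513 CPM in the DJL1 libraries, against 0.241, 0.132, 0.193 and 0.106 CPM in the CTRL libraries (0.55 ± 0.64, adjusted p = 0.504), with DJL1 replicate 3 alone above every CTRL library and a log2 fold change of -0.61 without it. FOXL3 had 0 counts in each DJL1 library and 0, 3, 2 and 1 counts in CTRL libraries, and FOXI1 had 2, 6 and 3 counts in DJL1 libraries and 4, 0, 1 and 10 counts in CTRL libraries.

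Members with near-identical copies are less certain, since how multimapping reads were counted is not given in the sources used here. FOXO3B, a copy of FOXO3 that overlaps ZNF286B, was at 35.9, 34.8 and 35.4 CPM in the DJL1 libraries, against 33.0, 34.5, 34.1 and 33.5 CPM in the CTRL libraries (0.07 ± 0.05, adjusted p = 0.265). FOXO1B, a copy of FOXO1, was at 0.261, 1.11 and 0.405 CPM in the DJL1 libraries, against 0.257, 0.105, 0.0965 and 0.227 CPM in the CTRL libraries (1.78 ± 0.56, adjusted p = 0.015). DJL1 replicate 2 carried most of that difference: without it the log2 fold change was 0.94 with an adjusted p of 0.217. FOXD4 was at 0.548, 0.827 and 0.513 CPM in the DJL1 libraries, against 0.562, 0.302, 0.547 and 0.666 CPM in the CTRL libraries (0.28 ± 0.36, adjusted p = 0.55). Its copies FOXD4L1, FOXD4L3, FOXD4L5 and FOXD4L6, which the symbol rule leaves out, were called neither way by edgeR with adjustment, DESeq2 or limma-voom, and without adjustment 1 was higher. Their log2 fold changes were 0.44, 0.33, 0.88 and 0.33.

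In the 46 RefSeq promoter windows that matched 35 members, the median number of CG dinucleotides was 27.5, against 22.0 in windows of all tested genes and 14.0 in all 35116 windows. The median GC content was 68.0% in forkhead windows, 63.3% in those of tested genes and 58.7% in all. The forkhead core GTAAACA, searched on both strands, was in 2 forkhead windows (4.35%), in 2.72% of windows of tested genes and in 3.42% of all. The FOXH1 element AATCCACA was in 0 of the 46, in 0.549% of windows of tested genes and in 0.817% of all. The cell cycle homology element TTTGAA was in 5 of them (10.9%), in 11.5% of windows of tested genes and in 15.2% of all. FOXO1B and FOXO3B aside, forkhead genes with 1 exon in every basic GENCODE transcript, 14 of those tested, were 10 higher and 2 lower, with a median log2 fold change of 1.43. The 28 with 2 or more exons were 16 higher and 7 lower, with a median of 0.31. Over tested protein-coding genes 43.7% with 1 exon and 33.5% with 2 or more were higher.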

How the data were processed

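Poly(A) RNA of H9 cells was sequenced in 3 DJL1 and 4 CTRL libraries, grouped by sample title. The authors deposited raw counts per gene symbol, which were used unchanged. Tools in the submitters' processing notes are featureCounts, Subread (1.5.0), HISAT2 (2.2.1) and Trim Galore (0.4.0), with build GRCh38. The kit is directional. The labels do not give separate cultures for the replicates, and the p-values rest on a spread between libraries that may be only technical.

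Genes passing filterByExpr (minimum count 10, minimum total 15; 99.9% of counts) were scaled by TMM and tested with edgeR's quasi-likelihood test, robust, 2-sided, with Benjamini-Hochberg adjustment at 0.05 over all tested genes. The standard error is the log2 fold change divided by the square root of F. The script was tested on simulated data. Per-length levels use GENCODE 29 basic exons, and positions and promoters RefSeq GRCh38.p14. The text names the forkhead members, up to 4 tested members of each list by smallest adjusted p, tested antisense RNAs and copies, and POU5F1, NANOG and SOX2. DNAH11, GLI1, HHIP and PTCH1 were named after their values were seen. Members and lists were chosen with earlier results of these data known, and some lists share genes. Alternatives were other scalings, filters and tests, thinned counts, a replicate block and each library left out. The software was Python 3.11.15 and, in R 4.3.3, DESeq2 1.42.0, edgeR 4.0.16 and limma 3.58.1. Some values are not reported here, and protein sequences were not used here.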

Additional observations from a re-analysis of the deposited data

Results flagged for a closer look

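In 44 groups of 4 CTRL libraries, 2 forkhead genes had a library far from the other 3 by Dixon's test, where chance gives about 1 in 20. FOXD1 was at 1.17 CPM in CTRL replicate 1, while the other CTRL libraries were at 1.99, 1.95 and 2.10 CPM. FOXK1 was at 24.3 CPM in CTRL replicate 4, while the other CTRL libraries were at 26.1, 25.9 and 26.2 CPM. Groups of 3, such as DJL1, were not examined.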

How the results depend on the processing

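Of 731 values of single forkhead genes under 17 alternatives, 721 kept their direction and side of the threshold. In 3 genes that were not called with or without these libraries the sign changed: FOXK1 was -0.055 without DJL1 replicate 2, FOXP3 was -0.083 and FOXR2 was -0.61 without DJL1 replicate 3, and the highest values with 1 library left out were 0.150, 0.295 and 0.96 in the same order of genes. The cause was not tested. The counts of 27 higher and 9 lower forkhead genes stayed within 1.5 times under each alternative, as did the count of all called genes. The median log2 fold change of forkhead genes, 0.86, was 0.35 under the stricter filter (1 CPM in 3 libraries), which leaves out the called genes FOXD2, FOXE3, FOXL1, FOXL2, FOXN1, FOXO1B and FOXR1, and 0.79 after thinning to the smallest library, which leaves out the called genes FOXE3 and FOXO1B. It was 0.79 to 0.97 with 1 library left out. The stricter filter added calls of FOXK2 and FOXO1. With the replicate number as a block (replicates 1 to 3), 35 of 43 forkhead genes and 46.4% of all genes were called, with 27 forkhead genes higher and 8 lower, FOXN3 being lost. Deviations of same-numbered libraries correlated at -0.00889, -0.0388 and -0.0249, and those of differently numbered libraries at -0.0203 to 0.0361. These values show no pairing by number, but over all tested genes they may be mostly counting noise, so pairing stays unknown. The lower depth and larger spread of the DJL1 libraries limit members under 1 CPM.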
